A study of Mus musculus with 7 samples.

Results

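The genes of the RNA polymerases, the Mediator complex and the TATA-box binding protein associated factors (TAFs) were followed in mouse oocytes from the germinal vesicle (GV) stage to metaphase II (MII), with and without BYBX, a ligand that stabilizes RNA G-quadruplexes (rG4s). Members were chosen by symbol alone, as entries that start with Polr, or with Med or Taf followed by a digit, and this gave 84 of 25912 entries, with 29 polymerase genes, 31 Mediator genes and 24 TAF genes. Polyadenylated RNA was sequenced by Smart-seq2, which primes on poly(A) tails, in 7 libraries, each from a pool of 10 oocytes. GV oocytes gave 2 libraries (labelled as untreated, while the study's methods describe DMSO, the solvent of BYBX, as the control at both stages), MII oocytes cultured with DMSO gave 3, and MII oocytes cultured with BYBX gave 2. The oocytes came from C57BL/6 females of 4 weeks, killed 44 h after gonadotropin (PMSG) injection, and were collected at the GV stage, and the MII groups were then matured in culture. No dose of BYBX is given for these libraries. Nothing states that libraries of a group came from separate animals or cultures, so the p-values measure only the spread between these libraries.

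RNA polymerase I makes ribosomal RNA, polymerase II makes messenger RNA, polymerase III makes transfer RNA and other small RNAs, and a separate enzyme transcribes the mitochondrial genome. TAFs build TFIID, which places polymerase II on promoters, SL1, which does so for polymerase I, and part of the coactivator SAGA, while Mediator links activators to polymerase II. A fully grown oocyte is largely silent in transcription and lives on stored mRNA, part of which is removed or changes its poly(A) tail during maturation.

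The deposited values are FPKM (fragments mapped to a gene, divided by transcript length and by all mapped fragments of the library), which the authors scaled to an ERCC spike-in of 100 pg per sample and to the GV samples of each batch. On this scale the summed FPKM of a library lay between 402113 and 489569 in GV, between 109732 and 127254 in MII with DMSO, and between 201482 and 246710 in MII with BYBX. All 9 oocyte markers fixed as a list (such as Zp3, Gdf9 and Mos) were detected in every library, and they summed to 11164 and 14064 FPKM in GV, 2803 to 3541 FPKM in MII with DMSO and 6330 and 7372 FPKM in MII with BYBX. The 12 granulosa and cumulus cell markers summed to 2.37 to 17.1 FPKM in a library, with 1 of them listed at 0 throughout, and were highest in GV, and the erythrocyte markers had no single value above 1.06 FPKM, with 1 of 9 entries at 0 throughout. Their part in the results was not tested. Fewer transcript molecules per oocyte and fewer intact oocytes in a pool cannot be told apart in such libraries, and oligo-dT priming means that a lost poly(A) tail lowers a value as a lost transcript does.

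Of the 84 members, 76 passed the filter on low levels, a mean of the 3 group means of at least 1 FPKM. The other 8 are Med12, Med12l, Med9os, Polr3g, Polr3gl, Taf7l, Taf7l2 and Taf15, none of which exceeded 1.66 FPKM in a library. Taf7l, the paralog of Taf7 known from male germ cells, was listed at 0 in 5 libraries and at 0.0460 and 0.0257 FPKM in the others. Med12, which holds the kinase module of Mediator together, lay at 1.43 and 0.802 FPKM in GV and at no more than 0.196 FPKM in MII with DMSO.

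**Figure D1:**
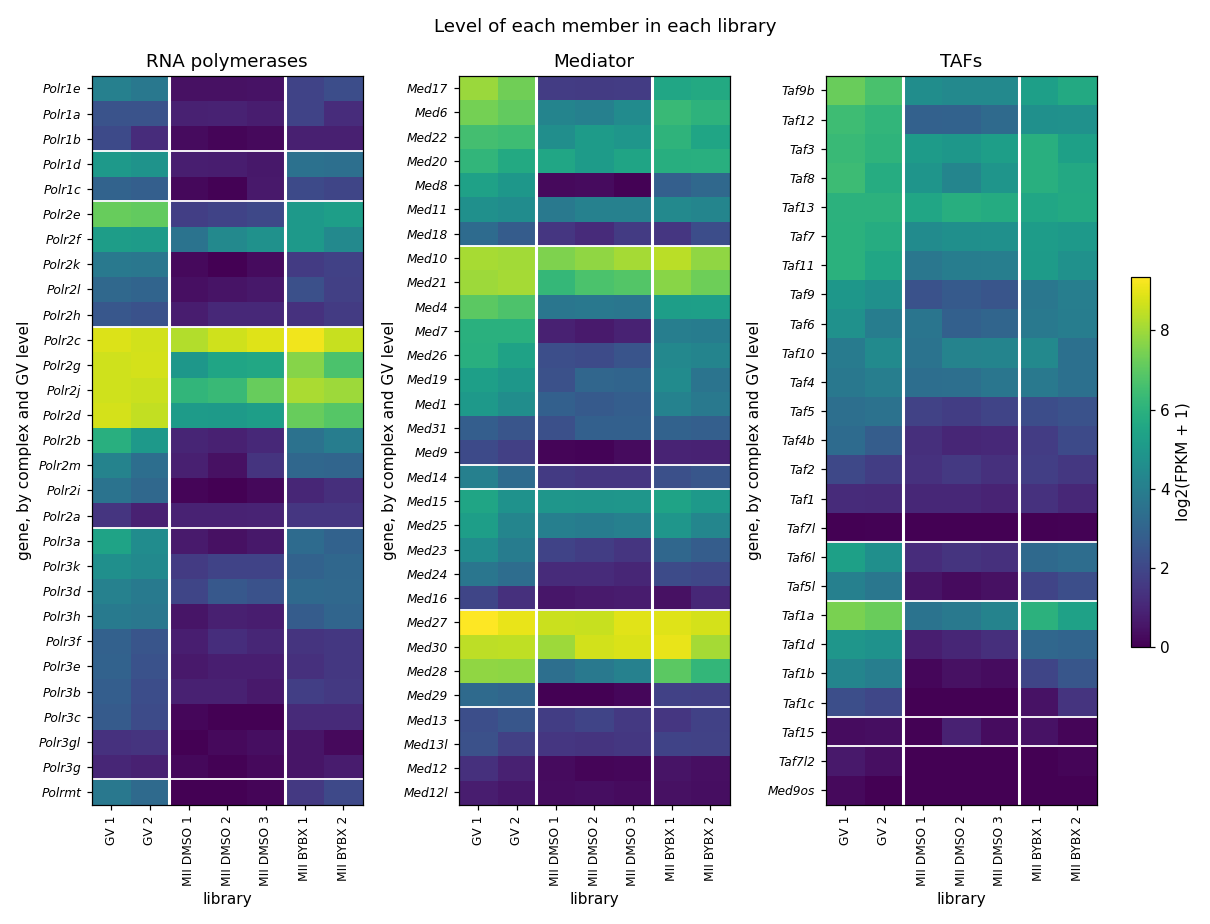
Level of all 84 members, as log2(FPKM + 1), in each of the 7 libraries (columns), with genes in rows, grouped by complex and ordered by GV level within it. Within a complex, rows such as Polr2c, Med27 and Med30 are bright in all 7 libraries, while rows such as Polr2e and Med17 are dark in the 3 MII libraries with DMSO and intermediate in the 2 with BYBX.

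Subunits that form a complex in set proportions were stored at very unequal mRNA levels in GV oocytes. Among the 12 subunits of polymerase II (5 of them shared with polymerases I and III), Polr2c, which helps to start the assembly of the enzyme, had the highest mean level, with 459 and 418 FPKM. Polr2a, the gene of the largest and catalytic subunit, had 1.73 and 0.807 FPKM. Polr2b, which forms the active centre with Polr2a, lay between them at 58.6 and 32.2 FPKM. FPKM is per length, so these levels can be compared between genes, although the estimate for a long transcript from oligo-dT primed cDNA can be low. Polr2g, named after its values were seen, made up 20.7% and 23.4% of the summed FPKM of the 12 subunits in GV, next to 23.2% and 22.9% for Polr2c, so these neighbours did not differ beyond the libraries' spread.

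The same spread was present in the other complexes. In Mediator the highest level was that of Med27, a subunit placed between the tail and the head, with 650 and 520 FPKM, while Med14, the scaffold that runs through the complex, had 15.6 and 8.54 FPKM. In TFIID the highest was Taf9b, a paralog of Taf9, with 146 and 99.2 FPKM, against 1.22 and 1.18 FPKM for Taf1, the largest TAF. In SL1, Taf1a stood at 175 and 148 FPKM. Among the Polr1 genes not shared with another polymerase, Polr1e had the highest mean level, with 15.8 and 12.3 FPKM. Znrd1, a polymerase I subunit under another symbol, was higher at 78.4 and 91.3 FPKM. Polr3a, the largest subunit of polymerase III, had the highest mean level among the Polr3 genes, with 41.5 and 22.3 FPKM. The shared subunit Polr2e stood above both Polr1e and Polr3a, with 143 and 136 FPKM.

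The first comparison asked how these stores changed between GV and MII with DMSO. As deposited, 64 of 76 members were lower in MII and none was higher (limma, Benjamini-Hochberg adjusted p under 0.05 over all 9202 entries tested), with a median log2 change of -2.06. At an unadjusted p under 0.05 the count of higher members was also 0. This was near the background, since 88.3% of all tested entries were lower and 0.272% higher, with a median of -1.83. In 69 of the 76 members (90.8%, against 92.5% of all tested entries) every MII library lay below both GV libraries. The summed FPKM of the members was 6034 and 5225 in GV and 1789, 2158 and 2541 in MII with DMSO, which is 38.4% of GV by the means.

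Within polymerase II the subunits parted widely. Polr2c (chr8:94857450-94873535 on GRCm38, strand +) had 308, 406 and 475 FPKM in MII with DMSO, which overlapped the GV libraries, and its log2 change of -0.17 ± 0.27 (SE) was not called (adjusted p = 0.556) and was positive and called on both other scales described below, median centring and equal totals. Polr2e (chr10:80035949-80039795, strand -), a subunit shared by polymerases I, II and III, went from 143 and 136 FPKM to 2.35, 2.70 and 3.12 FPKM, a log2 change of -5.25 ± 0.24 (adjusted p = 3.99e-10). Polr2e thus stood at 1.95% of its GV mean and Polr2c at 90.4%. For the former all MII libraries with DMSO were far below both GV libraries, and for the latter 2 lay below both GV libraries and 1 above both.

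Polr2b fell to 0.944, 0.826 and 1.12 FPKM, a log2 change of -4.50 ± 0.28 (adjusted p = 3.47e-09). Polr2i, a small subunit with a part in proofreading, went from 10.7 and 7.91 FPKM to 0.0993, 0 and 0.144 FPKM, and Polr2k, the smallest shared subunit, from 12.8 and 12.2 FPKM to 0.184, 4.05e-93 and 0.202 FPKM. A listed 0, or a value next to it, may be a failed estimate of the authors' program, so no fold is given for these. Polr2a, at 0.863, 0.864 and 0.930 FPKM in MII with DMSO, lay within its GV range and was not called (log2 change -0.24 ± 0.20, adjusted p = 0.277), and on both other scales it was called higher. Without GV replicate 2 its change was -0.53 and was called (adjusted p = 0.0151). Of all 12 subunits, 10 were lower (88.3% of all tested entries were) and 2 were not called.

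Shares within a library do not depend on how libraries were scaled to each other. A share rises when the other subunits fall, so it is not separate from the levels above. Of the summed FPKM of the 12 polymerase II subunits, Polr2c made up 23.2% and 22.9% in GV, 67.0%, 68.9% and 64.5% in MII with DMSO, and 43.8% and 40.6% in MII with BYBX. Polr2e made up 7.22% and 7.47% in GV, 0.424% to 0.511% in MII with DMSO, and 2.52% and 3.93% in MII with BYBX. For both genes the groups did not overlap and the BYBX libraries lay between the other groups.

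**Figure D2:**
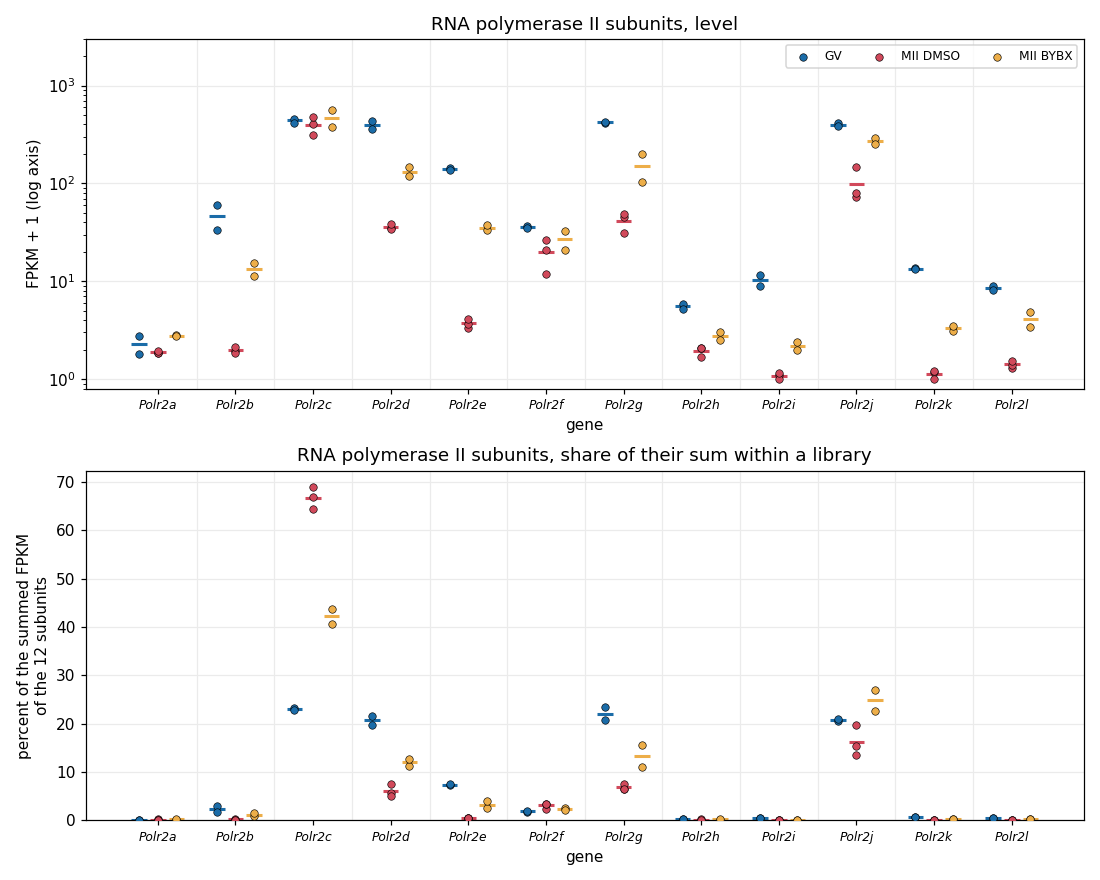
Levels (top, FPKM + 1, log axis) and shares of the summed FPKM within a library (bottom, percent) of the 12 polymerase II subunits. Points are libraries, colours are groups and short lines are group means. The level of Polr2c overlaps between all 3 groups, and its share is 22.9% to 23.2% in GV and 64.5% to 68.9% in MII with DMSO.

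Exon overlaps limit some of these values, since the kit does not mark strand. Of the tested members, 16 share exon bases with another protein-coding gene in GENCODE vM21, and in 1 case, Taf9 with Ak6, on the same strand, so these values are uncertain. Polr2c shares 953 bases with Dok4 on the opposite strand. Dok4 lay at 33.6 and 23.4 FPKM in GV and at 2.19, 2.09 and 2.0 FPKM in MII with DMSO, far below Polr2c in all libraries. Polr2i shares 325 bases with Tbcb, which lay at 61.2 and 66.9 FPKM in GV, above Polr2i. Taf10, named after its values were seen, shares 2106 bases with Ilk on the opposite strand. Ilk lay at 6.20 and 5.73 FPKM in GV and at 0.876 FPKM or less in MII with DMSO.

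All 3 polymerase I genes, all 8 tested polymerase III genes, all 7 shared subunits and Polrmt were lower in MII with DMSO as deposited. So were 88.3% of all tested entries, and these sets are small. Polr1e went to 0.352, 0.354 and 0.375 FPKM, a log2 change of -3.46 ± 0.21 (adjusted p = 3.5e-09). Polr3a went to 0.610, 0.343 and 0.522 FPKM, a log2 change of -4.40 ± 0.27 (adjusted p = 3.38e-09). Polrmt, the mitochondrial RNA polymerase, went from 12.4 and 8.44 FPKM to 0.0241, 0.00458 and 0.0913 FPKM, a log2 change of -3.43 ± 0.23 (adjusted p = 5.92e-09). In each of the 3 genes the groups were far apart.

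The other catalytic genes of these enzymes were low from the start. Polr1a and Polr1b, which form the active centre of polymerase I, had GV levels of 4.28 and 4.23 FPKM and of 3.26 and 1.26 FPKM. Their log2 changes of -1.55 ± 0.22 and -1.42 ± 0.23 and that of Polr3b, -1.71 ± 0.22, turned positive once each library was centred on its median. With equal totals Polr1a stayed negative and was not called (-0.35, limma adjusted p = 0.164). Polr3b was called lower on that scale (-0.52, adjusted p = 0.0411), and Polr1b was not tested on it. Such low genes are compressed by the added 1 FPKM, and as shares of the GV mean Polr1a stood at 18.7%, Polr1b at 7.09% and Polr3b at 15.3%.

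Mediator held both ends of the range. Of its 28 tested genes 22 were lower in MII with DMSO and 6 were not called, and none was higher, with a median log2 change of -1.68 over them. Among all tested entries 88.3% were lower, with a median of -1.83. Med17 (chr9:15260351-15279931, strand -), a core subunit of the head module, went from 247 and 160 FPKM to 2.18, 2.10 and 2.17 FPKM, a log2 change of -5.99 ± 0.26 (adjusted p = 3.24e-10). This was the largest fall of any member on the log2(FPKM + 1) scale, which compresses genes of low MII level. With a pseudocount of 0.1 the log2 change of Med17 was -6.47 and that of Med8 -7.24. Med27 had 382, 378 and 480 FPKM, below both GV libraries in each case, but its log2 change of -0.50 ± 0.24 was not called (adjusted p = 0.06), and it was called higher on both other scales. Without GV replicate 2 the change of Med27 was -0.66 (adjusted p = 0.0452) and without MII with DMSO replicate 3 it was -0.61 (adjusted p = 0.0487), both called.

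Med7, a hinge of the middle module, fell from 60.4 FPKM in both GV libraries to 0.819, 0.613 and 0.840 FPKM, a log2 change of -5.13 ± 0.22 (adjusted p = 3.49e-10). Med8, a head subunit, fell from 40.2 and 30 FPKM to 0.182, 0.197 and 0.0469 FPKM, a log2 change of -4.97 ± 0.23 (adjusted p = 4.64e-10). Head and middle module thus held genes at 1.06%, 1.25% and 0.405% of their GV means (Med17, Med7 and Med8).

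The scaffold and the contact subunits lay in between. Med14 was at 2.04, 1.79 and 1.77 FPKM in MII with DMSO, a log2 change of -2.14 ± 0.26, and Med1, the main contact of nuclear receptors, went from 31.8 and 22.8 FPKM to 6.24, 5.19 and 5.93 FPKM, a log2 change of -2.05 ± 0.25, and both changes came to slightly above 0, not called, after median centring. Med13 and Med13l, alternative links of the kinase module to the core, lay between 1.63 and 2.75 FPKM in MII with DMSO and had log2 changes of -0.66 ± 0.22 and -0.60 ± 0.22 that were called as deposited and were called in the opposite direction on both other scales. As deposited, the call of Med13 was lost without GV replicate 2 (-0.54, adjusted p = 0.0703) or MII with DMSO replicate 3 (-0.58, adjusted p = 0.0516), and that of Med13l without GV replicate 1 (-0.32, adjusted p = 0.162) or MII with DMSO replicate 2 (-0.57, adjusted p = 0.0593).

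The 3 Mediator genes of the highest MII levels, Med27, Med30 and Med10 (the latter pair named after their values were seen), were picked by those levels, so their shares are a description only. They made up 44.2% and 45.9% of the summed FPKM of the 30 Mediator genes in GV. They made up 75.1%, 76.6% and 78.2% in MII with DMSO and 61.9% and 58.8% in MII with BYBX.

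The counts of TFIID, SAGA and SL1 stand beside 88.3% lower among all tested entries, with a median of -1.83. Of 15 tested TFIID genes 11 were lower and 4 not called, with a median log2 change of -1.25. Both SAGA genes and all 4 SL1 genes were lower, as most tested entries were, with medians of -3.59 and -3.66. Differences between these complexes were not tested. Taf1 lay at 1.04, 1.07 and 0.904 FPKM in MII with DMSO, below GV in each library, and its log2 change of -0.14 ± 0.18 was not called (adjusted p = 0.48) but was positive and called on both other scales. Taf4, which stabilizes TFIID, went from 12.5 and 14.9 FPKM to 9.29, 9.60 and 11.7 FPKM and was not called either (log2 change -0.40 ± 0.24, adjusted p = 0.137), with a positive, called change on both other scales.

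Taf1a, a subunit of SL1, went to 10.8, 12.8 and 17.2 FPKM, a log2 change of -3.50 ± 0.29 (adjusted p = 5.36e-08). Taf9b went to 23.2, 20.0 and 19.8 FPKM and Taf9, which TFIID and SAGA share, went from 29.8 and 24.8 FPKM to 4.05, 5.23 and 4.52 FPKM. The log2 changes of this pair, -2.47 ± 0.27 and -2.34 ± 0.24, were alike, and both were negative but no longer called after median centring. Of the other TFIID genes fixed by name, Taf5, Taf6 and Taf7 had log2 changes of -1.66 ± 0.22, -1.16 ± 0.30 and -1.25 ± 0.24 as deposited, all called, and all 3 were positive and called after median centring. Without GV replicate 1 the change of Taf6 was -0.77 and was not called (adjusted p = 0.0743). Taf6 also shares 1185 exon bases with Ap4m1, which lay at 1.03 FPKM or less in all libraries.

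**Figure D3:**
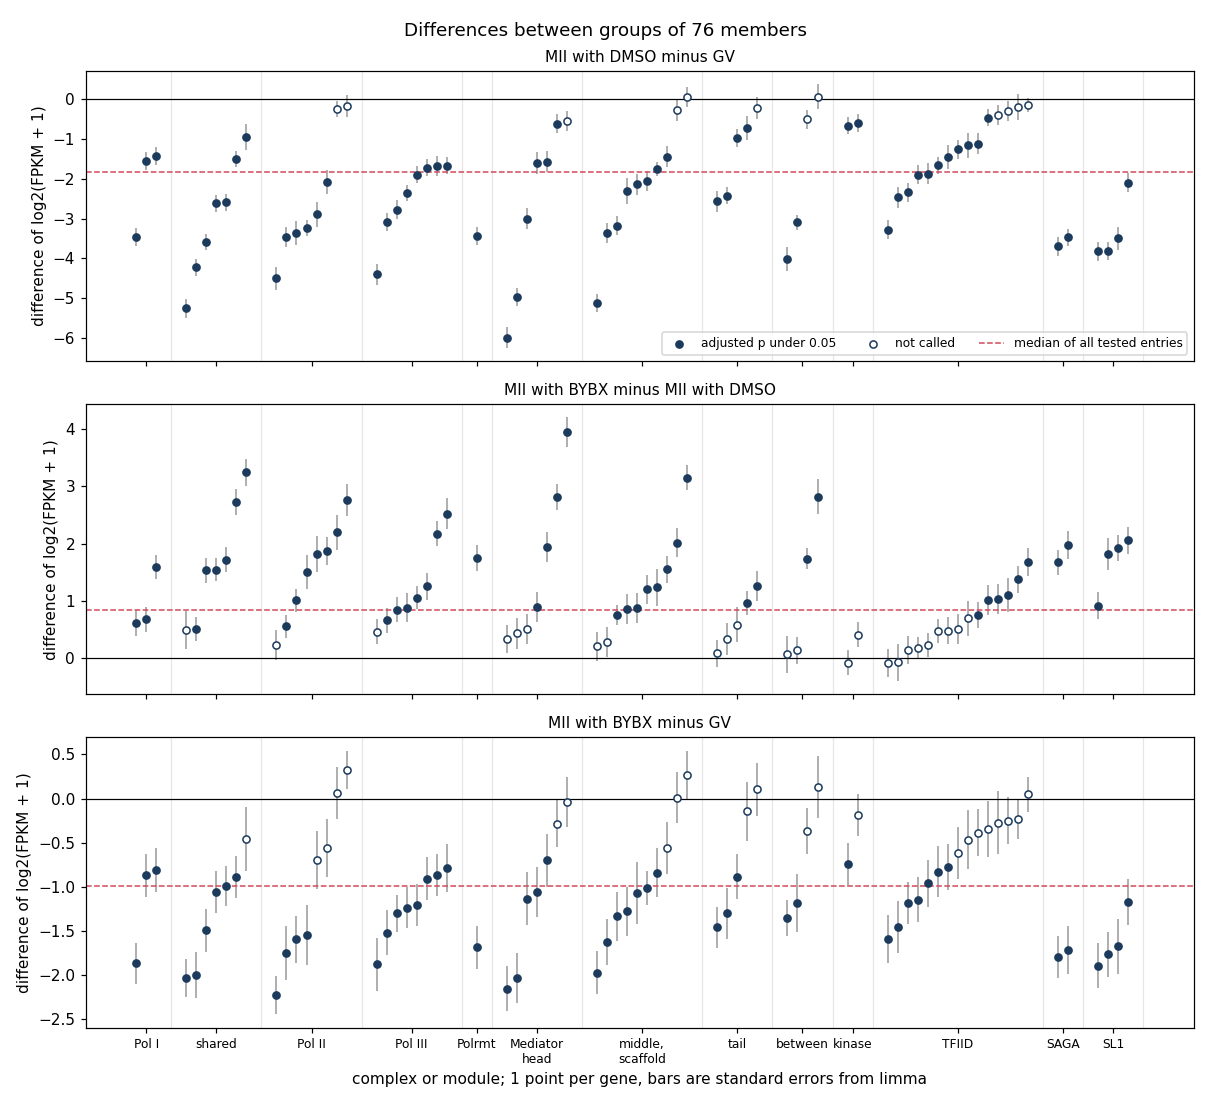
Difference of log2(FPKM + 1) between groups for the 76 tested members, as deposited. Each point is a gene, bars are standard errors, filled points passed an adjusted p under 0.05, open points did not, and the dashed line is the median of all 9202 tested entries (-1.83, 0.84 and -0.99 from top to bottom). No member passed the test above 0 in the top and bottom panels or below 0 in the middle one, but after median centring 34, 14 and 29 members, in that order, did, Polr2c and Taf1 among them in the top panel.

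The 12 members not called lower in MII with DMSO were Polr2a, Polr2c, Med10, Med15, Med20, Med27, Med30, Med31, Taf1, Taf4, Taf10 and Taf13 (those outside the rule for names were named after their values were seen). They spanned GV levels from 1.22 and 1.18 FPKM (Taf1) to 650 and 520 FPKM (Med27), and 6 of them are Mediator, 4 TFIID and 2 polymerase II genes. None of the tested genes of polymerase I, polymerase III, SL1 or SAGA was among them. These sets are small, and 88.3% of all tested entries were lower.

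The directions depend on the scale, since total FPKM differed between the groups. Centring moved the median change of all tested entries from -1.83 to 0.47, and equal totals moved it to -0.47. With log2 values centred on each library's median, 34 of 76 members were higher in MII with DMSO (44.7%, against 48.8% of all tested entries) and 26 lower (34.2%, against 26.7%). With all libraries set to the same total FPKM, 20 of 74 were higher (27.0%, against 24.6% of all 8811 entries tested on this scale) and 38 lower (51.4%, against 47.6%). The 12 members not called as deposited were called higher on both other scales. The 26 members that were lower after centring were also lower as deposited and with equal totals, and they include Polr2b, Polr2e, Polr2i, Polr2k, Polr1e, Polr3a, Polrmt, Med7, Med8, Med17, Taf1a, Taf5l and Taf6l.

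Another list held partners and general factors (43 genes, 40 tested), and 36 of these were lower (88.3% of all tested entries were) and none higher, with a median log2 change of -2.30. Znrd1, the gene of a polymerase I subunit under another symbol, went from 78.4 and 91.3 FPKM to 0.193, 0.0381 and 0.545 FPKM, a log2 change of -6.11 ± 0.25 (adjusted p = 2.82e-10). Crcp, a polymerase III subunit, went from 17.0 and 14.1 FPKM to 0.0467, 0.266 and 0.0379 FPKM, a log2 change of -3.89 ± 0.24. Cd3eap and Twistnb, also of polymerase I, had log2 changes of -0.71 ± 0.19 and -1.33 ± 0.24 that were called as deposited. Both were positive on both other scales, called after median centring but not with equal totals (limma adjusted p = 0.0534 and 0.364). As deposited, Znrd1 stood at 0.305% of its GV mean, Cd3eap at 44.7% and Twistnb at 32.8%.

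Tbp, the TATA-box binding protein, went from 33.4 and 26.7 FPKM to 2.49, 2.78 and 2.86 FPKM, a log2 change of -3.06 ± 0.23 (adjusted p = 2.17e-08). Tbpl2, its oocyte paralog, went from 25.1 and 23.2 FPKM to 3.99, 2.65 and 3.09 FPKM, a log2 change of -2.58 ± 0.28. The change of Tbpl2 was negative but not called after median centring (-0.27, limma adjusted p = 0.423), and it was called lower with equal totals (-0.92, adjusted p = 0.0321). Ccnc, the cyclin of the Mediator kinase module, had a log2 change of -3.09 ± 0.23 and Cdk8, its kinase, one of -1.88 ± 0.37, which was positive and not called after median centring. Gtf2b, which bridges Tbp and polymerase II, lay at 192 and 170 FPKM in GV and 40.9, 51.3 and 69.2 FPKM in MII with DMSO. Its log2 change of -1.76 ± 0.28 was positive on both other scales, called after median centring but not with equal totals.

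Because the libraries were primed on poly(A) tails, the annotated 3' ends of members were searched for the cytoplasmic polyadenylation element (CPE), the letters TTTTAT or TTTTAAT in the last 100 bases of the 3' UTR, on the transcript strand. The windows of 30 bases that follow are shown because they hold the element in members that were not called lower (Med10, Med15, Med31 and Taf4) and in members called lower as deposited (Polr2b and Polr2k, also lower on both other scales, and Taf5, which was called higher after median centring). They are from GRCm38 with GENCODE vM21 transcripts, lie in 3' UTRs, are written 5' to 3' on the transcript strand, and have the element in capitals.
Med10 (chr13:69815997-69816026, strand +): gagaaaactcggTTTTATagttacattttc
Med15 (chr16:17651260-17651289, strand -): gaaaattcccctTTTTATatgtgcactact
Med31 (chr11:72211733-72211762, strand -): agttggcaaattTTTTATtaataaattatt
Taf4 (chr2:179912190-179912219, strand -): taattgctattgTTTTATataggattgaaa
Polr2b (chr5:77349247-77349276, strand +): ttgtgataagaaTTTTATttgttttgttta
Polr2k (chr15:36176900-36176929, strand +): atacaattgtaTTTTAATactttgtataaa
Taf5 (chr19:47083413-47083442, strand +): cattttgtacagTTTTATatttttgatatc

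Of the 75 tested members with an annotated transcript whose coding sequence and 3' end are complete, 14 (18.7%) held the element. Among the 8743 tested genes with such a transcript 20.2% did. It was present in 4 of the 12 members not called lower (33.3%) and in 10 of the 63 called lower (15.9%). Over all tested genes the same shares were 36.6% of 1017 and 18.0% of 7726. The median log2 change from GV to MII with DMSO was -1.58 for members with the element and -2.09 for those without, and -1.24 and -1.99 over all tested genes. These are descriptions without a test, and the annotated 3' end may not be the one used in oocytes. Polr2b, printed above with the element, stood at 2.13% of its GV mean.

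Since BYBX binds rG4s, whole transcripts were searched on the transcript strand for predicted rG4 motifs, defined as 4 G runs (each of 3 G or more) separated by 1 to 7 bases of any kind. The windows shown are from members that were not called lower (Taf1 and Taf4, in the coding sequence, and Taf10, in the 3' UTR) and from members called lower as deposited (Med1 and Med13l, in the 3' UTR, neither called lower after median centring, and Taf12, in the 3' UTR, called lower on all 3 scales and named after its values were seen), on the same build, with the motif in capitals.
Taf1 (chrX:101532819-101532848, strand +): cccatGGGCCCGGGGTGGGCTGGGctgctg
Taf4 (chr2:179975750-179975779, strand -): GGGGGCGCCGCGGGGTTGGGCCAGCCGGGc
Taf10 (chr7:105741625-105741654, strand -): atgaGGGTTGGGTGGGGGGCTGGGGGagcc
Med1 (chr11:98154975-98155004, strand -): taaGGGGAGAGGGGTGGTGGGAGAGGGtgt
Med13l (chr5:118765047-118765076, strand +): aaaaGGGAGGCGGGAGGGGAGGCGGGaggg
Taf12 (chr4:132293897-132293926, strand +): tgaGGGACCATGGGCTTAGGGGAGGGtggc

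Such a motif was found in 9 of the 75 members (12%, against 17.7% of all tested genes), and in none of their 5' UTRs (7.29% of all tested genes). Transcripts with a very short or missing annotated 5' UTR, such as that of Taf4 with 0 bases, could not hold one there. Members with a motif had a median log2 change from GV to MII with DMSO of -0.95 and those without one of -2.22, and over all tested genes the medians were -1.57 and -1.89. From MII with DMSO to MII with BYBX the medians were 0.48 and 1.03 for members and 0.77 and 0.86 for all tested genes. The members with a motif thus had the smaller median in both comparisons, as did all tested genes. Taf12, with a motif, went from 86.5 and 70.1 FPKM in GV to 6.52, 6.68 and 8.4 FPKM in MII with DMSO, and a match is not evidence that the structure forms. The Taf10 motif lies 2236 bases from the end of an annotated transcript of 4281 bases, and whether oocytes use that transcript was not tested. Change from GV to MII with DMSO and length of the coding sequence had a Spearman coefficient of 0.11 across the 75 members and 0.23 across the 8743 genes, which are not independent replicates.

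The comparison of MII with BYBX against MII with DMSO asked how libraries with the same stage label differed with the ligand. The paper reports less polar body emission at higher BYBX concentrations. It also reports that few treated oocytes reached MII, and that these had abnormal spindles. How far the oocytes in the BYBX pools had matured is not stated. The part of incomplete or delayed maturation in these differences was not tested. As deposited, 52 of 76 members were higher with BYBX and none was lower (0 also at an unadjusted p under 0.05), with a median log2 difference of 0.99. Of all tested entries 65.2% were higher and 0.0326% lower, with a median of 0.84. In 62 of 76 members both BYBX libraries lay above all 3 DMSO libraries, as they did in 79.0% of all tested entries. Of the 27 tested polymerase genes 24 were higher, of 28 Mediator genes 16, and of 21 TAF genes 12.

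Med17 had 45.3 and 50.3 FPKM with BYBX against 2.10 to 2.18 FPKM with DMSO, a log2 difference of 3.95 ± 0.26 (adjusted p = 6.24e-08), the largest of any member on the log2(FPKM + 1) scale. By the ratio of group means Med17 was 22.3 times its DMSO level. Larger ratios included 49.8 (Med8), 63.4 (Polrmt) and 86.9 (Taf1c, named after its values were seen). These larger ratios rest on DMSO levels of at most 0.197 FPKM and are uncertain. Polr2e had 32.1 and 36.3 FPKM, a log2 difference of 3.25 ± 0.24 (adjusted p = 1.29e-07), and Med7 had 15.1 and 14.2 FPKM, a log2 difference of 3.16 ± 0.22 (adjusted p = 1.03e-07). The changes of Med17, Polr2e and Med7 from GV to MII with DMSO are given above, and both comparisons share the DMSO libraries. Polr2b, at 10.4 and 14.4 FPKM, and Polr3a, at 8.59 and 6.63 FPKM, had log2 differences of 2.76 ± 0.28 and 2.52 ± 0.27. For Med17, Polr2e, Med7, Polr2b and Polr3a the BYBX libraries were higher than the DMSO libraries on all 3 scales.

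Polr2c had 559 and 375 FPKM with BYBX, a range that overlaps both other groups, and a log2 difference of 0.23 ± 0.27 that was not called as deposited (adjusted p = 0.448) and was called lower on both other scales. Med27, at 470 and 431 FPKM, had a log2 difference of 0.13 ± 0.24 and was likewise called lower on both other scales. Polr2a, at 1.79 and 1.76 FPKM, was called higher as deposited (log2 difference 0.56 ± 0.20, adjusted p = 0.026) and lower after median centring. This call of Polr2a, as deposited, was lost without any 1 of MII with DMSO replicates 1, 2 and 3 or MII with BYBX replicate 1 (adjusted p = 0.055 to 0.0704) and in a fit blocked on replicate number (adjusted p = 0.091). Taf1, at 1.53 and 1.04 FPKM, had a log2 difference of 0.18 ± 0.18 that was not called, and it was called lower after median centring.

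Taf5l and Taf6l, the SAGA counterparts of Taf5 and Taf6, had 2.74 and 3.73 FPKM and 8.23 and 9.08 FPKM with BYBX, with log2 differences of 1.67 ± 0.22 and 1.98 ± 0.25 against DMSO. Taf1a had 62.8 and 39.3 FPKM, a log2 difference of 1.82 ± 0.29, and Polrmt had 1.93 and 3.15 FPKM, a log2 difference of 1.75 ± 0.23. Both BYBX libraries were above all 3 DMSO libraries in each of these genes. After median centring Taf6l was still called higher, and Taf5l, Taf1a and Polrmt were not called. Among the general factors 30 of 40 were higher (65.2% of all tested entries were), and Znrd1, with 23.9 and 18.9 FPKM, had a log2 difference of 4.17 ± 0.25.

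After median centring 17 members were higher with BYBX than with DMSO (22.4%, against 18.4% of all tested entries) and 29 lower (38.2%, against 43.9%). With equal totals 32 of 74 were higher (43.2%, against 38.8%) and 11 lower (14.9%, against 8.59%). All 17 members higher after centring were higher on the other scales as well.

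The last comparison asked how far MII with BYBX stood from GV. As deposited, 53 of 76 members were lower than in GV and none was higher (0 also at an unadjusted p under 0.05), with a median log2 difference of -1.03, against 69.2% lower and 0.315% higher among all tested entries and a median of -0.99. In 55 of the 76 members (72.4%, against 71.1% of all tested entries) both BYBX libraries lay between the GV and the DMSO libraries. By the means, the median member stood at 15.9% of GV in MII with DMSO and at 40.6% in MII with BYBX, and the median tested entry at 16.3% and 43.4%.

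Polr2i, at 0.991 and 1.38 FPKM, had a log2 difference of -2.23 ± 0.22 from GV (adjusted p = 4.68e-05), the largest of any member on the log2(FPKM + 1) scale. Med8, at 6.14 and 8.01 FPKM, and Polr2k, at 2.10 and 2.49 FPKM, had log2 differences of -2.16 ± 0.25 and -2.04 ± 0.22. Med17 and Polr2e stood at 23.5% and 24.5% of their GV means, log2 differences of -2.03 ± 0.28 and -2.0 ± 0.26. All 5 were below GV on all 3 scales. Polr2c was at 106% of its GV mean, a log2 difference of 0.06 ± 0.29 that was not called (adjusted p = 0.854) and was called higher on both other scales. After median centring 14 members were higher and 14 lower than in GV (18.4% each, against 15.2% and 13.6% of all tested entries), and with equal totals 9 and 13 (12.2% and 17.6%, against 5.49% and 13.0%).

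Ratios of related genes within a library do not depend on its scale either. The ratio of Taf5l to Taf5 was 1.63 and 1.13 in GV, 0.156, 0.0985 and 0.126 in MII with DMSO, and 0.759 and 0.902 with BYBX. The ratio of Taf6l to Taf6 was 1.51 and 1.69 in GV, 0.109, 0.259 and 0.203 in MII with DMSO, and 0.643 and 0.619 with BYBX. In both pairs the SAGA gene exceeded its TFIID counterpart in GV, the 3 groups did not overlap, and the BYBX libraries lay in between. The low end rests on levels of Taf5l of at most 0.402 FPKM, and the mean ratio of Taf5l to Taf5 in MII with DMSO, 0.127, was 0.376 with 1 FPKM added to both genes.

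In contrast, the ratio of Taf9b to Taf9 was 4.89 and 4.00 in GV, 5.71, 3.83 and 4.39 in MII with DMSO, and 3.11 and 3.31 with BYBX. GV and MII with DMSO thus overlapped, and both BYBX ratios lay below all libraries of the other groups. These ratios are uncertain, since Taf9 shares 1564 exon bases with Ak6 on the same strand. Ak6 lay at 4.29 and 3.39 FPKM in GV, at 0.815, 1.28 and 1.56 FPKM in MII with DMSO and at 2.06 and 1.85 FPKM with BYBX. Taf4b, the paralog of Taf4 that is enriched in gonads, went from 8.58 and 5.81 FPKM in GV to 1.41, 1.0 and 1.12 FPKM in MII with DMSO, a log2 change of -1.89 ± 0.23 as deposited that was positive and not called after median centring. Its ratio to Taf4 was 0.688 and 0.389 in GV, 0.152, 0.105 and 0.0962 in MII with DMSO, and 0.168 and 0.324 with BYBX. The 3 groups did not overlap here either, with BYBX in between, but DMSO (0.152) and BYBX (0.168) nearly met. The mean ratio in MII with DMSO, 0.118, was 0.197 with 1 FPKM added to both genes. All 7 libraries held more Taf4 than Taf4b per length.

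Of the other pairs, Med13l to Med13 had ratios of 0.521 and 1.07 in GV, 0.591 to 0.940 in MII with DMSO and 1.03 and 1.55 with BYBX, and Tbpl2 to Tbp had 0.752 and 0.871 in GV, 0.954 to 1.60 in MII with DMSO and 0.502 and 1.10 with BYBX. In neither pair did all 3 groups separate. The ratio of Med12l to Med12 was 0.481 and 0.590 in GV, 1.21, 3.46 and 1.77 in MII with DMSO, and 0.820 and 0.891 with BYBX, so all 3 groups were apart with BYBX in between, but both genes lay below the filter and at 0.278 FPKM or less in MII with DMSO. With 1 FPKM added to both genes the mean ratios of Med12l to Med12 were 0.756, 1.10 and 0.960 in the same order. Polr3g and Polr3gl, alternative subunits of polymerase III, also lay below the filter, and their ratio of 0.192 to 5.82 in MII with DMSO rests on levels of 0.262 FPKM or less.

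**Figure D4:**
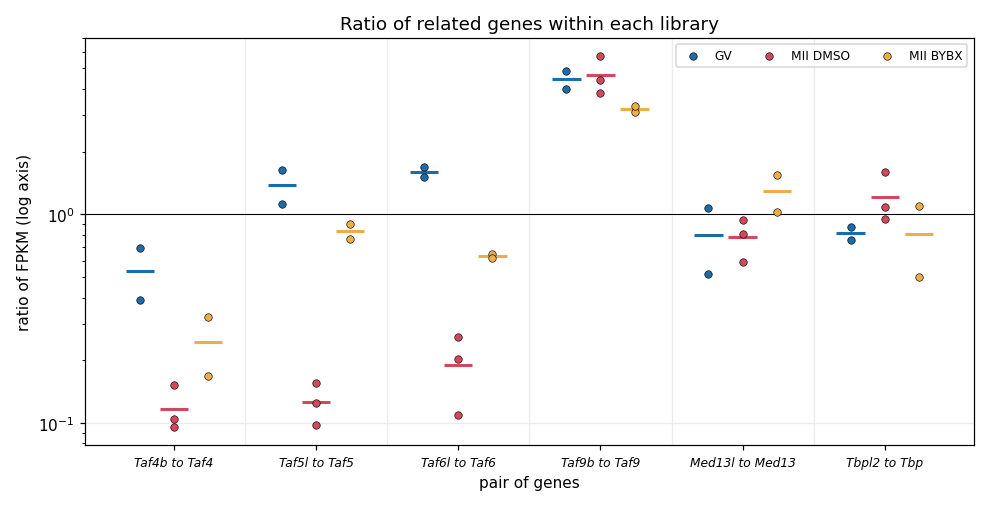
Ratio of FPKM of related genes in each library (log axis). Points are libraries, colours are groups and short lines are group means. Taf5l to Taf5 and Taf6l to Taf6 lie above 1 in GV, at 0.259 or less in MII with DMSO and between 0.619 and 0.902 with BYBX, while Taf9b to Taf9 lies between 3.11 and 5.71 in all libraries. Taf9 shares exon bases with Ak6 on the same strand, so its ratio is uncertain.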

How the data were processed

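Smart-seq2 libraries of 10 oocytes each were grouped by the sample labels (GV, 2; MII with DMSO, 3; MII with BYBX, 2). The authors trimmed reads with Trim Galore 0.6.7, aligned them to mm10 with HISAT2 2.2.1 and computed FPKM with Cufflinks 2.2.1 (versions from the submitters' processing notes). They deposited FPKM values scaled to the ERCC spike-in and, within a batch, to GV samples. Scaling factors are not given in the sources used here, and no ERCC entries are listed. Cufflinks does not keep whole reads, so the depth per library is unknown. No counting interval follows from FPKM alone, and precision is that of 2 or 3 libraries. Genes with a near-identical copy may share reads.

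Each table lists 25912 entries. Of these, 4 entries with a missing value, none a member, were left out. Values were analysed as log2(FPKM + 1), on which scale changes of low genes are understated, with limma 3.58.1 in R 4.3.3 (3 group means, 4 residual degrees of freedom, intensity trend) for the 9202 entries whose 3 group means averaged 1 FPKM or more. Calls used a Benjamini-Hochberg adjusted p under 0.05. The step was tested on simulated data. Members, lists and tests were chosen with earlier results of these data known. Named genes were the largest, catalytic or scaffold subunits, the related pairs, the gene of highest GV level in each complex, and per comparison the 3 largest rises and 3 largest falls among called members whose groups did not overlap and whose higher group reached 5 FPKM, with members called in a direction that held fewer than 5. From the general factors they were Tbp, Tbpl2, Cdk8, Ccnc, Gtf2b and the polymerase subunits under other symbols. Gene and transcript positions were from GENCODE vM21 on GRCm38 (mm10), with 1 transcript per gene, and 83 of 84 members matched by symbol. A comparison with protein length was replaced by coding length, since no protein table was used here. Tables were made with pandas 2.3.3 and numpy 2.4.6 and plots with matplotlib 3.10.9, under Python 3.11.15.

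Alternatives were a pseudocount of 0.1, a filter at 5 FPKM or none, equal total FPKM, median centring, a fit without the third group, a block for the replicate number, ratios of FPKM + 1, a fit with no trend and leaving out each library in turn.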

Additional observations from a re-analysis of the deposited data

How the results depend on the processing

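Median centring, which sets the median log2 value of all libraries to the same level, and equal total FPKM, which removes the difference in totals, changed most counts. Members lower at MII (DMSO) than at GV numbered 26 and 38 (64 as deposited) and members higher 34 and 20 (0). Members higher with BYBX than with DMSO numbered 17 and 32 (52) and members lower 29 and 11 (0). Members lower with BYBX than in GV numbered 14 and 13 (53) and members higher 14 and 9 (0). A filter at 5 FPKM, with 52 members tested, gave 42 lower members for MII with DMSO against GV and 33 for BYBX against GV. Leaving out 1 library gave 56 to 65, 46 to 54 and 43 to 53 for the 3 counts in the deposited direction, and 0 in the other except for 1 member higher with BYBX than in GV without GV replicate 1 (range 0 to 1). The median change of members was 0.24 (MII with DMSO against GV) and -0.29 (BYBX against DMSO) after centring.

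The log2 changes from GV to MII with DMSO that were negative as deposited came out after median centring at 2.14 (Polr2c), 2.07 (Polr2a), 0.75 (Polr1a), 0.88 (Polr1b), 0.59 (Polr3b), 1.80 (Med27), 0.17 (Med14), 0.26 (Med1), 1.64 (Med13), 1.71 (Med13l), 2.17 (Taf1), 1.91 (Taf4), 0.41 (Taf4b), 0.65 (Taf5), 1.14 (Taf6), 1.05 (Taf7), 0.54 (Gtf2b), 0.42 (Cdk8), 1.59 (Cd3eap) and 0.97 (Twistnb). Those also positive with equal totals came out at 1.72 (Polr2c), 0.75 (Polr2a), 1.38 (Med27), 0.77 (Med13), 0.74 (Med13l), 0.87 (Taf1), 1.34 (Taf4), 0.59 (Taf6), 0.58 (Taf7), 0.11 (Gtf2b), 0.44 (Cd3eap) and 0.23 (Twistnb). Still negative with equal totals were Polr1a (-0.35), Polr3b (-0.52), Med14 (-0.62), Med1 (-0.31), Taf4b (-0.53), Taf5 (-0.099) and Cdk8 (-0.22), and Polr1b was not tested. Between BYBX and DMSO, centring gave -1.05 (Polr2c), -0.72 (Polr2a), -1.15 (Med27) and -1.10 (Taf1), and equal totals -0.66 (Polr2c) and -0.76 (Med27).

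The replicate numbers share only a number: deviations of same-numbered libraries correlated at 0.487 and 0.282 (MII with DMSO and GV) but at -0.601 and -0.348 (BYBX and DMSO) and -0.330 (BYBX and GV). With the replicate block the counts in the deposited direction were 62 (MII with DMSO against GV), 41 (BYBX against DMSO) and 50 (BYBX against GV), with 0 in the other direction, and among the named genes the call of Polr2a between BYBX and DMSO was lost. With the numbers of the BYBX libraries crossed, an alternative chosen after seeing the data, 48 were lower than in GV. A pseudocount of 0.1, no filter, a fit without the third group and no trend left all counts within 1.5 times. Depth is unknown, so values under 1 FPKM carry no counting limit.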
